A study of Mus musculus with 70 samples.

Results

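The Hox genes were profiled across 70 mouse libraries in 24 groups, taking as members all genes whose symbol is Hoxa, Hoxb, Hoxc or Hoxd followed by a number. This gave 39 members of 34677 genes, in 13 paralogue groups of 2 to 4 genes and 4 genomic clusters. RNA-Seq had been done to map brain regions that control energy balance, together with regions thought to have no direct part in it. The strain was C57BL/6, which the study's methods give as C57BL/6NTac for the mice and embryos, with no transgene or treatment in any group. Expression is given as TPM, the share of a transcript among all transcripts of a library, scaled by transcript length so that levels of different genes can be compared. Punches from male P56 mice covered 10 rostral regions with 29 libraries, namely frontal pole cortex (FRP), anterior cingulate area (ACA), entorhinal area (ENT), nucleus accumbens (ACB), the paraventricular, dorsomedial, ventromedial and arcuate hypothalamic nuclei (PVH, DMH, VMH, ARH), lateral hypothalamic area (LHA) and ventral tegmental area (VTA). They also covered 3 hindbrain regions, the parabrachial nucleus (PB, n = 3), the nucleus of the solitary tract (NTS, n = 4) and the dorsal-vagal complex (DVC, n = 3), and 5 cerebellar regions, the cerebellar nuclei (CBN, n = 3), central lobule II (CENT2, n = 4), culmen lobules IV-V (CUL4-5, n = 4), uvula (UVU, n = 3) and flocculus (FL, n = 4). Embryos at E14.5 gave forebrain (F, n = 1), terminal and peduncular hypothalamus (THy-PHy, n = 3), midbrain (M, n = 2) and hindbrain (H, n = 3). The mouse embryonic stem cell (mESC) lines B6-1 and B6-2 gave 2 libraries each, and each line is a single clone, grown on feeder fibroblasts and then passaged on gelatin to remove them. A brain library pooled punches of several mice or embryos, except 1 ACB library of 1 mouse. The pools drew on far fewer mice than there are libraries, so libraries of different regions shared mice, and the p-values measure the spread between pools.

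Hox genes encode homeodomain transcription factors that give cells along the head-to-tail axis their positional identity. Within each cluster the genes lie in the order of their paralogue numbers, and low-numbered genes have anterior expression limits in the hindbrain while high-numbered genes are limited to the spinal cord and the caudal body. Retinoic acid opens low-numbered genes in the caudal neural tube, and Polycomb complexes keep the clusters silent elsewhere. Hox proteins bind DNA together with Pbx, Meis and Pknox cofactors.

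On GRCm38 the clusters lay on chromosome 6 (HoxA, 11 members), chromosome 11 (HoxB, 10 members over 173.9 kb, 96194316 to 96368256), chromosome 15 (HoxC, 9 members over 115.8 kb, 102921103 to 103036852) and chromosome 2 (HoxD, 9 members over 96.8 kb, 74668310 to 74765142). HoxB spanned the longest stretch, with Hoxb13 set at one end. The members share the homeobox, and the codons of its recognition helix, which reads the DNA, are shown because reads from so similar a stretch decide how well neighbouring paralogues can be told apart. Over the 39 members this stretch of 24 bases took 32 distinct sequences, and 12 members shared theirs with another. Capitals mark bases that differ from the base most common over the 39 members (tggttccagaaccggagcatgaag), and the sequences are from the GRCm38 transcripts, with all of the stretches named here in coding exons.
Hoxa2: tggttTcagaaccggagAatgaag
Hoxa4: tggttTcagaaccggagAatgaag
Hoxb3: tggttccagaaccgTCgcatgaag
Hoxd3: tggttccagaaccgTCgcatgaag
Hoxb5: tggttccagaaccgTCgcatgaag
Hoxa5: tggttccaAaacAggagGatgaag
Hoxb6: tggttTcagaaccggCgcatgaag
Hoxb8: tggttccagaaTcggagAatgaag
Hoxc4: tggttccaAaaccgTCgTatgaaA
Hoxd4: tggttccagaaccggagGatgaag
Hoxc12: tggttccagaaccggagAatgaaA
Hoxc13: tggttccagaaTcgACgcGtgaaA
Hoxd13: tggttTcagaaTcgAagGGtgaag
Hoxa2 (chr6:52163426-52163449, minus strand, exon 2) and Hoxa4 (chr6:52190498-52190521, minus strand, exon 2) were identical here, as were Hoxb3 (chr11:96345809-96345832, plus strand, exon 4), Hoxd3 (chr2:74746501-74746524, plus strand, exon 3) and Hoxb5 (chr11:96305048-96305071, plus strand, exon 2). Hoxc13 (chr15:102927351-102927374, plus strand, exon 2) and Hoxd13 (chr2:74670071-74670094, plus strand, exon 2) each differed from the most common bases at 5 positions.

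Identity in the helix did not extend far along most transcripts. Counted as runs of 31 bases, the unit in which Kallisto matches reads, Hoxd3 shared 52.6% and Hoxd4 37.0% of their runs with the read-through gene Gm28230, and Hoxa2 shared 13.7% and Hoxa3 8.12% with Gm28308, both named here after their values were seen. Gm28230 itself had a mean of 1.29 TPM in NTS, 2.35 TPM in DVC and 1.24 TPM in H, and Hoxd3 and Hoxd4 also shared 9.26% and 12.1% of their runs with another member. The levels of Hoxd3 and Hoxd4 are therefore uncertain as to how reads were split among these genes. Hoxc10 shared 7.34% of its runs with Hoxc5, and all remaining members shared under 5% with any other gene. Annotated genes on the opposite strand overlap members, among them Hoxa3, Hoxa4, Hoxa7, Hoxa11, Hoxb2, Hoxb3, Hoxb5, Hoxd3 and Hoxd4, and since the strand setting of the counting is not stated, reads of these partners may be included.

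Promoters were searched for AGGTCA, the core motif bound by retinoic acid receptors, on both strands in windows from 250 bases before to 50 bases after the gene start (RefSeq, GRCm38.p6). Windows were found for 22 members, some with more than 1 start, and 7 of 24 windows (29.2%) held the motif against 5340 of 32851 windows of all genes (16.3%). The 7 windows belonged to Hoxa5, Hoxb4, Hoxc4, Hoxd3, Hoxd4, Hoxd8 and Hoxd10, which include all 3 members of paralogue group 4 that had a window. The windows of Hoxb4 (chr11:96318017-96318316, plus strand) and Hoxd4 (chr2:74721728-74722027, plus strand) are shown because this paralogue group carried 26.7% of the summed Hox level in NTS and 27.9% in DVC, with the motif, here in its reverse complement TGACCT, in capitals.
Hoxb4: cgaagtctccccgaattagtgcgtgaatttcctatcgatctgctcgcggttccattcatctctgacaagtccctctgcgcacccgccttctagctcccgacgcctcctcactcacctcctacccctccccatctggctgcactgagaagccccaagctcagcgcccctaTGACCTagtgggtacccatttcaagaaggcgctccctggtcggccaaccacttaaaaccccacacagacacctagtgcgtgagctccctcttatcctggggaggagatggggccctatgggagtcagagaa
Hoxd4: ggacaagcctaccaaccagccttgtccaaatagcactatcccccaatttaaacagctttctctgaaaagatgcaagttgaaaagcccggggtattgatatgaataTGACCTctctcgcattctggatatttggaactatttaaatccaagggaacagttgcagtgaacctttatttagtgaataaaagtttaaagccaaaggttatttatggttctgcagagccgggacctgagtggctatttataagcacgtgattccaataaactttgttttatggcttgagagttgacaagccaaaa
A match describes these letters only, and binding was not measured.

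Libraries held 9074581 to 22229582 estimated counts with a median of 17016935. Summed over 6 marker genes of the caudal hindbrain, PB, NTS and DVC libraries stood at 147 to 226.5 TPM and rostral libraries at up to 13.14 TPM, and the stem cell markers stood at 3927 to 4455 TPM in mESC. A few libraries stood apart from the rest of their group in their Hox levels. H replicate 3 had a summed Hox level of 178 TPM against 720 and 768 TPM in the other 2 libraries, CBN replicate 1 had 70.5 TPM against 15.7 and 9.78 TPM, and UVU replicate 1 had 31.2 TPM against 3.23 and 1.85 TPM. Results on H, CBN and UVU are therefore also given without these libraries. Other tissue also differed between libraries, as choroid plexus markers ranged from 5.66 to 10710 TPM within NTS and from 3540 to 12750 TPM within CBN, and their part in the Hox results was not tested. Per the study's methods, samples were collected and prepared in several batches within a month. Which batch held which region or stage is not given in the sources used here, so that stage or cell type and batch cannot be told apart. The labels name no batch for single libraries. They hold serial numbers, whose relation to the batches is not given, and no batch term was fitted.

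Across the 24 groups, Hox expression was found in the caudal hindbrain, in parts of the cerebellum, in the embryonic hindbrain and, with other members, in the stem cells. Taking a mean of 1 TPM as detected, 18 members were detected in DVC, 18 in H, 14 in NTS, 11 in CBN, 5 in FL, 4 in UVU, 4 in each mESC line and 2 in THy-PHy. No member reached this level in any of the 10 rostral regions, or in PB, CENT2, CUL4-5, F or M. The highest value of any member in a rostral library was 0.97 TPM, for Hoxd1 in VTA. Of the 39 members, 22 were detected in at least 1 group. Over all 39 members, detected or not, the highest mean fell in H for 13, in DVC for 6, in NTS for Hoxd1, in UVU for Hoxb1 and in an mESC line for 18.

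**Figure D1:**
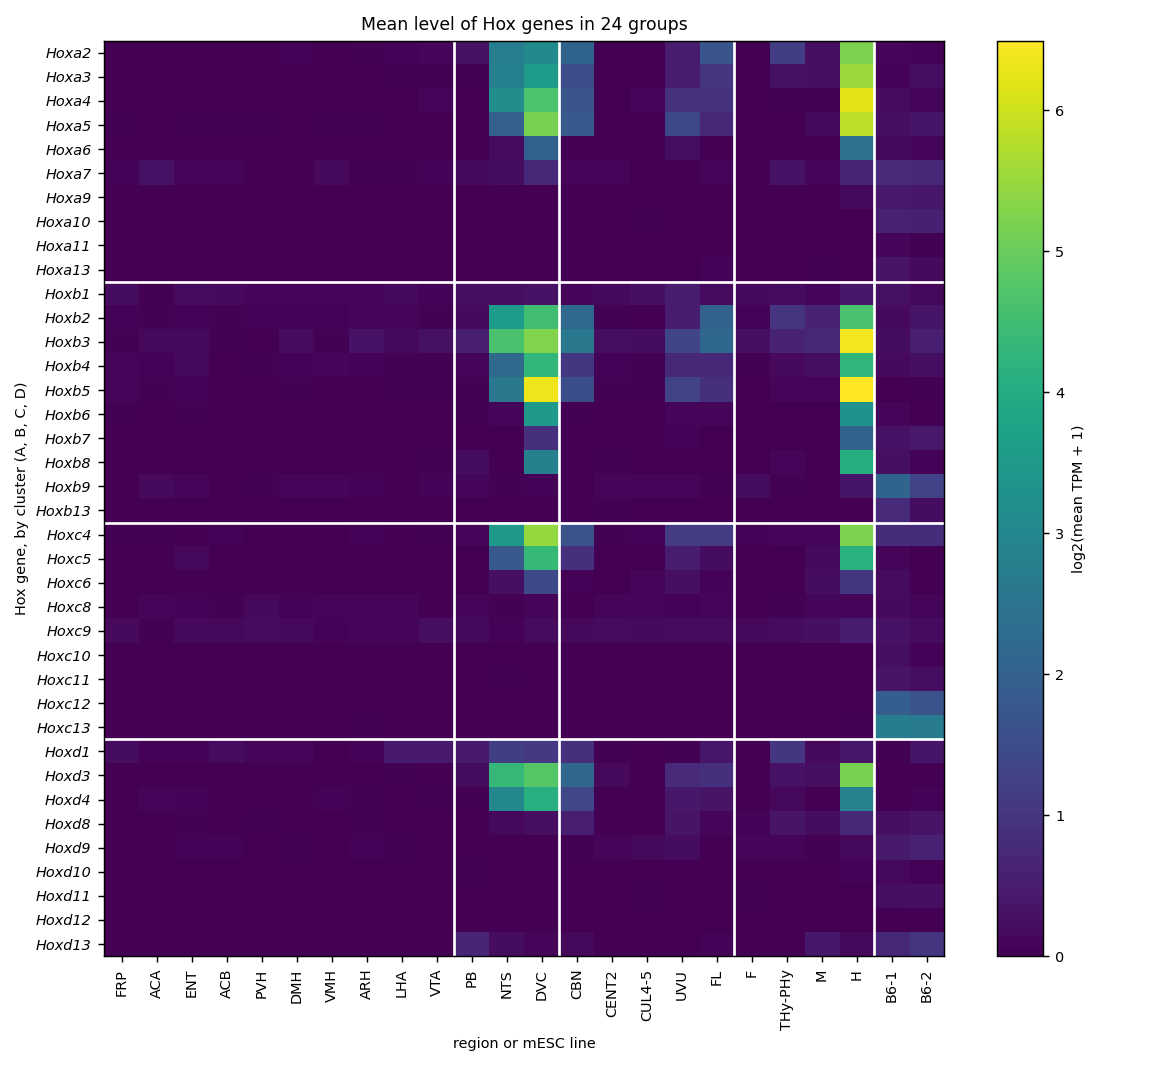
Mean level of Hox genes (rows, by cluster and paralogue number) in the 24 groups (columns, adult regions first, then E14.5 regions and mESC lines), as log2(mean TPM + 1). Levels are highest for the low-numbered genes of each cluster in NTS, DVC and H, near 0 in the 10 rostral regions, and in the mESC lines highest at the other end of HoxC.

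The level was also summed over all 39 members. In the 29 rostral libraries the sum was 0.429 to 2.41 TPM with a median of 1.06 TPM. PB had 2.77 to 3.57 TPM, NTS 87.2 to 123 TPM and DVC 318 to 414 TPM. These 4 ranges did not overlap, and NTS and DVC lay above all other adult libraries. Among the cerebellar regions FL had 10.6 to 23.0 TPM, while CENT2 had 0.867 to 1.84 TPM and CUL4-5 had 1.1 to 1.47 TPM, within the range of the rostral libraries. Embryonic F was at 0.87 TPM, M at 3.42 to 4.45 TPM and THy-PHy at 5.93 to 6.35 TPM. The mESC lines had 20.7 to 22.7 TPM (B6-1) and 17.6 to 19.6 TPM (B6-2).

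**Figure D2:**
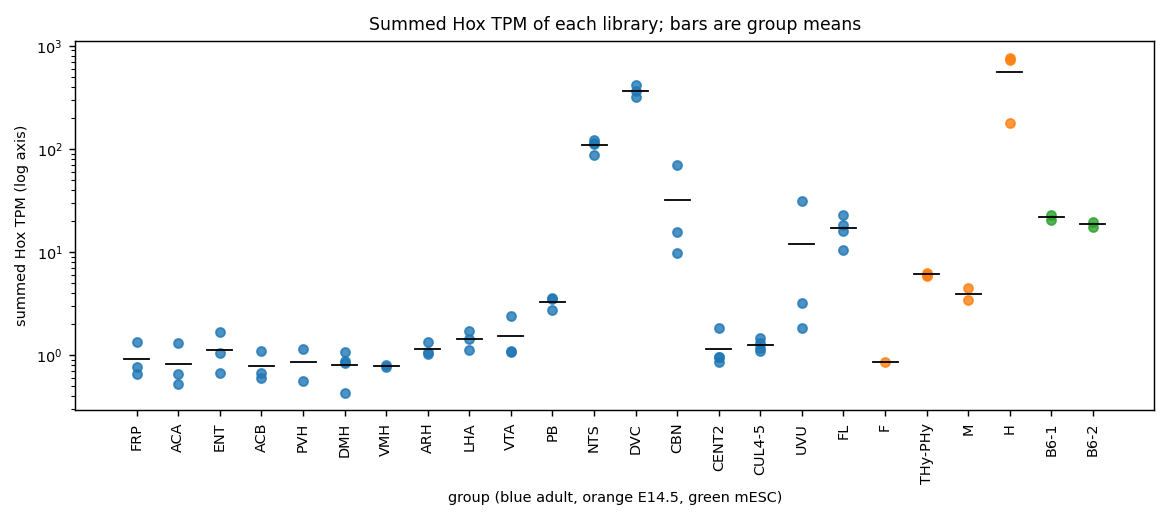
TPM summed over the 39 Hox genes in each of the 70 libraries (points) by group, on a log axis, with bars at the group means. NTS (87.2 to 123 TPM) and DVC (318 to 414 TPM) lie above every other adult library, and CBN, UVU and H each have 1 library far from the others.

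To determine which Hox genes mark the adult caudal hindbrain, NTS and DVC were compared with the 10 rostral regions. A gene counted as called when its adjusted p by edgeR was below 0.05 and its log2 fold change exceeded 1 in size, with each region given equal weight. Of the 39 members, 20 were called higher and none lower, 10 were tested and not called, and 9 had too few counts to be tested. Among all 19960 genes tested, 6.54% were called higher and 4.51% lower. In 14 members every NTS and DVC library lay above every rostral library, which was seen in 1.14% of the 21681 genes that reached 1 TPM in some library. In bulk tissue, fewer cells that express a gene and less RNA per cell cannot be told apart.

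Of group 1, whose products act in the earliest patterning of the hindbrain, the genes described here were weakly expressed in the adult. Hoxd1 had 0.977 to 1.88 TPM in NTS and 0.522 to 1.44 TPM in DVC, overlapping the VTA library at 0.97 TPM, and was called with a log2 fold change of 3.92 ± 0.45 (SE; edgeR adjusted p = 1.2e-10). Hoxb1 stayed under 0.454 TPM in NTS and DVC and overlapped the rostral libraries, although it was called with a log2 fold change of 1.18 ± 0.45 (SE; edgeR adjusted p = 0.0264).

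Groups 2 and 3, which specify the rhombomeres and the neural crest of the branchial arches, were expressed in both regions. Hoxa2, the gene with the most anterior expression limit of the family, had 6.5, 6.23, 5.22 and 5.57 TPM in NTS and 6.54, 8.61 and 7.29 TPM in DVC, with up to 0.107 TPM in rostral libraries. Hoxb2 had 12.5, 11.8, 8.79 and 11.5 TPM in NTS and 19.5, 24.4 and 20.6 TPM in DVC. No NTS or DVC library of either gene overlapped a rostral one. Hoxa3, known for its role in pharyngeal arch organs, had 5.88, 5, 5.39 and 7.71 TPM in NTS and 8.67, 11.7 and 12 TPM in DVC, and its log2 fold change was 9.82 ± 0.49 (SE; edgeR adjusted p = 1.16e-17). Hoxb3 had 24.7, 25.8, 17.9 and 25.9 TPM in NTS and 33.5, 38.1 and 40.1 TPM in DVC. It was the most abundant member in NTS. The largest log2 fold change of all members belonged to Hoxd3, at 11.16 ± 0.52 (SE; edgeR adjusted p = 2.87e-19), with 20.1, 21.5, 12.5 and 22.1 TPM in NTS, 24.7, 25.8 and 28.9 TPM in DVC and 4 counts over all 29 rostral libraries.

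Group 4 was the only paralogue group with a gene in each of the 4 clusters and all 4 genes detected in NTS and DVC. Hoxc4 had 12, 10.3, 7.7 and 11.9 TPM in NTS and 46.1, 48.4 and 35.7 TPM in DVC, and rose by a log2 fold change of 10.44 ± 0.57 (SE; edgeR adjusted p = 1.01e-19). Hoxa4 had 8.37, 9.11, 6.03 and 9 TPM in NTS and 21.3, 29.6 and 21.7 TPM in DVC, with a log2 fold change of 10.31 ± 0.7 (SE; edgeR adjusted p = 1.57e-13). Only 3 counts of Hoxa4 fell in the rostral libraries, so the ratio of counts scaled to library size was 2120 with a counting interval of 725 to 10300. Hoxb4 had 3.77, 3.36, 2.97 and 4.72 TPM in NTS and 17.3, 23.3 and 15.4 TPM in DVC, and Hoxd4 had 9.07, 7.06, 4.11 and 7.83 TPM in NTS and 12.7, 21.5 and 14.1 TPM in DVC. In each of these genes the DVC libraries lay above the NTS libraries.

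Group 5 genes, with their anterior limit at the caudal end of the hindbrain, were far more abundant in DVC than in NTS. Hoxb5 had 3.14, 4.26, 5.81 and 7.08 TPM in NTS and 87.8, 91 and 60.1 TPM in DVC, the highest level of any member in an adult region. Against the rostral regions its log2 fold change was 9.86 ± 0.59 (SE; edgeR adjusted p = 4.17e-19). Hoxa5, known for its role in respiratory and cervical motor circuits, had 2.13, 3.23, 4.24 and 2.38 TPM in NTS and 36.1, 39.5 and 28.6 TPM in DVC. Hoxc5 had 2.47, 1.4, 3.06 and 3.17 TPM in NTS and 23.4, 20.4 and 14.1 TPM in DVC. The lowest DVC library of each gene was above the highest NTS library.

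From group 6 on, expression was found in DVC and was near or under 0.5 TPM in NTS. Hoxb6 had 11.2, 11.1 and 8.36 TPM in DVC and 0.0554, 0, 0 and 0.225 TPM in NTS. Hoxa6 had 3.75, 2.58 and 2.89 TPM in DVC and 0, 0.146, 0.455 and 0 TPM in NTS. The group 6 genes, whose textbook domain is the cervical spinal cord and forelimb level, were completed by Hoxc6 with 1.5, 1.93 and 1.73 TPM in DVC, and all 3 were called against the rostral regions. Hoxb8, which has its usual anterior limit in the spinal cord, had 4.12, 10.3 and 3.85 TPM in DVC and 0, 0, 0.0418 and 0 TPM in NTS. It was not called against the rostral regions (log2 fold change 5.36 ± 2.47, SE; edgeR adjusted p = 0.077). Hoxb7 had 1.35, 1.03 and 0.101 TPM in DVC and was listed at 0 in every NTS and rostral library, and it was not called either. Groups 10 and 12 were listed at 0 in all NTS and DVC libraries.

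Next, DVC was compared with NTS, 2 punch regions of the caudal medulla that both take part in vagal control of feeding. The study's figure of the coronal sections shows NTS in panels O and P and DVC in the last panel, Q. The level of the punch along the medulla and the region named cannot be told apart here. Summed over paralogue groups, DVC was above NTS in every library for groups 2 to 9, and the ratio of means was 1.7 for group 2, 1.53 for group 3, 3.49 for group 4, 12.6 for group 5, 36.3 for group 6, 9.43 for group 7 and 44.4 for group 8. Group 3 had the largest share of the summed Hox level in NTS, 44.3% against 20.7% in DVC. In DVC the largest share was that of group 5, at 36.4%. The mean paralogue number weighted by TPM was 3.25 to 3.41 in NTS libraries and 4.02 to 4.22 in DVC libraries, with no overlap.

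**Figure D3:**
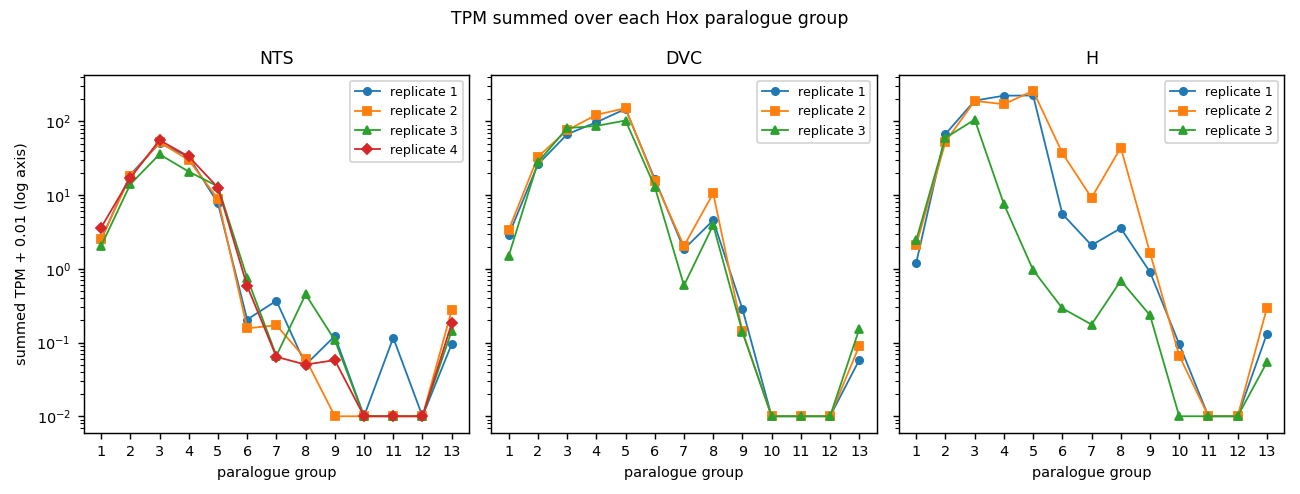
TPM summed over each of the 13 paralogue groups (x axis) in the libraries of NTS, DVC and H (lines and markers), on a log axis after adding 0.01. In NTS levels peak at group 3 and fall below 1 TPM from group 6, and in DVC they peak at group 5. H replicate 3 is lower than the other H libraries at group 3 and falls far below them from group 4 on.

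All 4 clusters were higher in DVC, with ratios of means of 3.36 for HoxA, 3.99 for HoxB, 4.86 for HoxC and 1.59 for HoxD, and no libraries overlapped. HoxD has no members in groups 5 to 7. By edgeR, 3 of 39 members were called higher in DVC and none lower, where 0.0651% of all genes (13) were called higher and 0.01% (2) lower. They were Hoxb8 (log2 fold change 7.89 ± 1.54, SE; edgeR adjusted p = 0.0425), Hoxb6 (6.51 ± 1.13; edgeR adjusted p = 0.0111) and Hoxb5 (3.9 ± 0.75; edgeR adjusted p = 0.0123). Only 1 count of Hoxb8 fell in NTS, so its ratio of counts scaled to library size was 383 with a counting interval of 68.2 to 15200. Hoxa5, with a log2 fold change of 3.46 ± 0.86 (SE), was not called (edgeR adjusted p = 0.153), and neither was Hoxb4 at 2.26 ± 0.65 (SE; edgeR adjusted p = 0.236). Still, 18 members were higher in every DVC library than in every NTS library, beside 8.41% of all genes. The calls turned on single libraries, as no member was called without NTS replicate 1, 2 or 3, and 2 were called without any of the others. With DESeq2 none was called, and with only NTS and DVC in the fit 8 were.

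Another difference moved with this contrast. A list named for sensory ganglia (Isl1, Pou4f1 and Prph) summed to 36.2 to 155.7 TPM in DVC and 10.66 to 22.81 TPM in NTS, with no overlap. Ganglion tissue cannot be read from this sum, which was also 75.62 to 81.1 TPM in ARH and 169 to 250.1 TPM in THy-PHy. Chat, a gene of motor and other cholinergic neurons, was at 10.47 to 45.35 TPM in DVC and 3.5 to 6.92 TPM in NTS. The part of these genes in the Hox difference was not tested. Caudal hindbrain markers overlapped, at 147 to 185 TPM in DVC and 160.4 to 187.1 TPM in NTS.

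**Figure D4:**
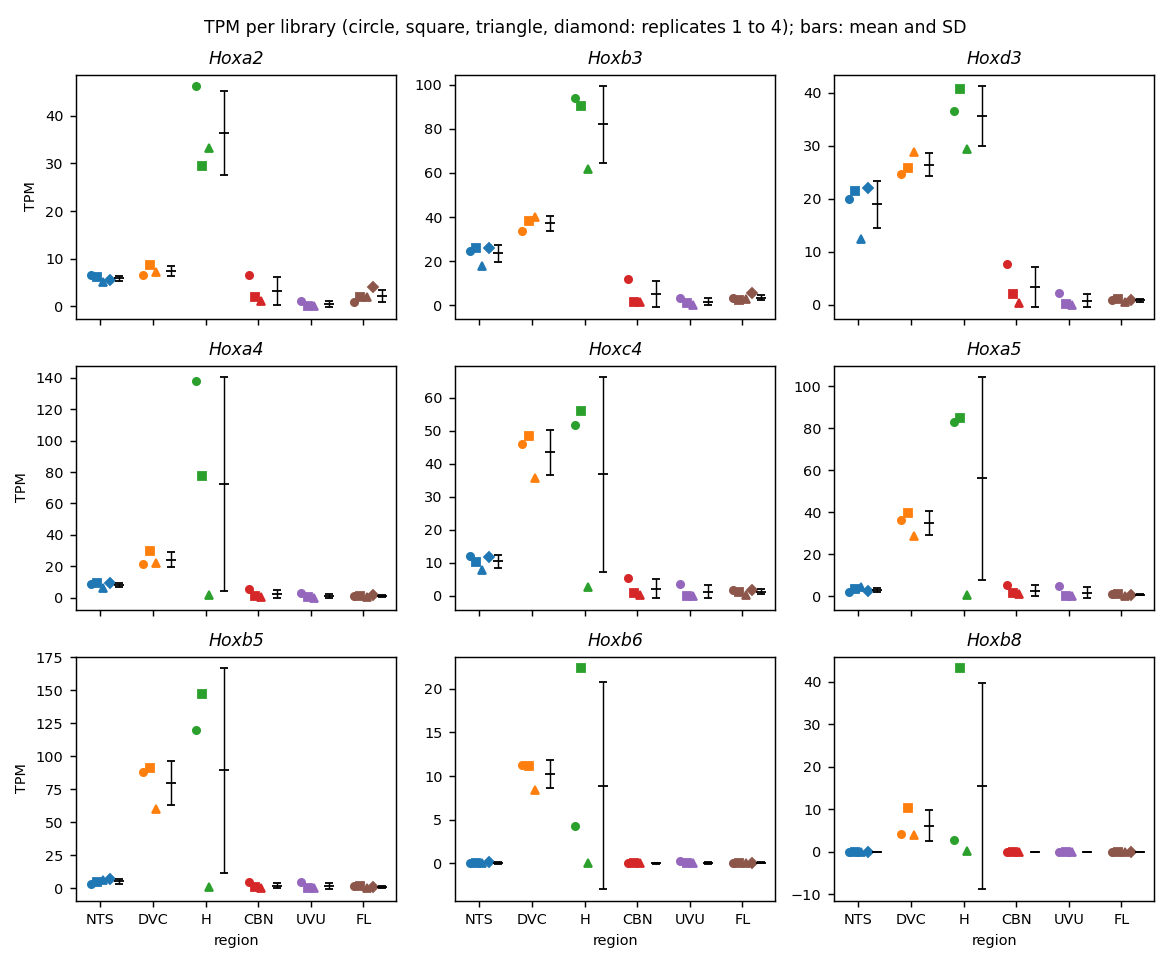
TPM of 9 Hox genes in each library of NTS, DVC, H, CBN, UVU and FL (markers by replicate), with the mean and SD beside them. Hoxa2, Hoxb3 and Hoxd3 are above 5 TPM in every NTS and DVC library, whereas Hoxa5, Hoxb5, Hoxb6 and Hoxb8 are far higher in DVC, and H replicate 3 is near 0 for Hoxa4 to Hoxb8 while it keeps Hoxa2, Hoxb3 and Hoxd3.

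PB lies further rostral in the pons, and no member reached a mean of 1 TPM there. Its summed Hox level was low but lay above all rostral libraries, at 2.77 to 3.57 TPM against 0.429 to 2.41 TPM. Against the 10 rostral regions 3 of 39 members, 30 of them tested, were called higher. Of all genes tested 4.43% were called higher, so these few calls are not far above the background. Hoxd13, known for its role in digits and the caudal body, had 0.678, 0.648 and 0.52 TPM in PB and was listed at 0 in all 29 rostral libraries. All 3 PB libraries were above every other adult library of Hoxd13, and with 36 counts against 0 it was at least 136-fold higher, on the limit of 3 counts that a total of 0 allows (edgeR adjusted p = 7.58e-10). Hoxa2 (0.226, 0.072 and 0.375 TPM) and Hoxd1 (0.286 to 0.478 TPM) overlapped the rostral libraries and were called with edgeR adjusted p = 0.00754 and 0.0135. Without PB replicate 2, and likewise without PB replicate 3, 2 members were called.

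Hoxd13 also separated PB from the caudal regions. NTS and DVC had 0.0376 to 0.264 TPM, below all PB libraries, a log2 fold change of -2.38 ± 0.6 (SE; edgeR adjusted p = 0.0137). It was the only member called lower than in PB, beside 1.44% of all genes, and this call was lost without PB replicate 1 or 2. The neighbour of Hoxd13, Evx2, which encodes a homeodomain factor of spinal and hindbrain interneurons, was looked at after this value was seen. Evx2 had 4.97 to 6.82 TPM in PB, a mean of 1.72 TPM in NTS and 0.968 TPM in DVC, and a log2 fold change of -2.1 ± 0.52 (SE; edgeR adjusted p = 0.00642) for NTS and DVC against PB. Evx1, the neighbour of Hoxa13, had a mean of 6.46 TPM in PB, 2.42 TPM in NTS and 1.97 TPM in DVC. In the other direction 14 members were higher in NTS and DVC than in PB, beside 0.857% of all genes. They were led by Hoxa4 (log2 fold change 10.63 ± 1.89, SE; edgeR adjusted p = 0.000323), Hoxa5 (10.44 ± 1.93; edgeR adjusted p = 0.000345), Hoxd3 (9.78 ± 1.22; edgeR adjusted p = 9.5e-07), Hoxc5 (9.63 ± 1.85; edgeR adjusted p = 0.000951) and Hoxb5 (9.46 ± 1.48; edgeR adjusted p = 1.21e-05). Of these, Hoxa4, Hoxa5 and Hoxc5 had no counts in PB and were at least 188-fold, 247-fold and 118-fold higher.

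In the cerebellum, which forms from the most anterior part of the hindbrain, Hox expression varied between regions and between libraries. Over the 5 cerebellar regions 6 of 39 members were called higher than in the rostral regions, beside 8.24% of all genes, and in none of them did every cerebellar library exceed every rostral one, which 0.969% of all genes did. The called members were Hoxc4 (log2 fold change 4.36 ± 1.33, SE; edgeR adjusted p = 0.00396), Hoxb3 (3.9 ± 0.86; edgeR adjusted p = 8.96e-05), Hoxb5 (3.84 ± 1.61; edgeR adjusted p = 0.0332), Hoxb4, Hoxb2 and Hoxd9. CENT2 and CUL4-5 had no member above 0.628 TPM in any library. FL had Hoxb3 at 3.31, 2.66, 2.75 and 5.45 TPM, Hoxb2 at 1.93, 3.62, 2.52 and 4.13 TPM and Hoxa2 at 0.982, 2, 2.07 and 4.03 TPM. In UVU the 4 detected members rested on replicate 1, where Hoxa5 was at 4.85 TPM against 0 and 0.0728 TPM.

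CBN had the highest mean of the summed level in the cerebellum through replicate 1, with a median of 15.7 TPM against 17.1 TPM in FL. Against the 4 cortical regions (CENT2, CUL4-5, UVU and FL), 15 of 39 members were called higher in CBN, beside 10.9% of all genes. Hoxd3 had 7.63, 2.1 and 0.426 TPM in CBN (log2 fold change 5.49 ± 0.7, SE; edgeR adjusted p = 4.56e-08), Hoxa2 had 6.62, 2.07 and 1.07 TPM (5.28 ± 0.7; edgeR adjusted p = 8.71e-08), and Hoxa3 had 3.9, 1.21 and 0.583 TPM (5.16 ± 0.73; edgeR adjusted p = 4.02e-07). CBN replicate 1 was the highest of the 3 in each case. Hoxa5 (5.46, 1.22 and 1.07 TPM) and Hoxd4 (3.86, 0.645 and 0.347 TPM) followed with edgeR adjusted p = 0.000114 and 3.58e-06. Libraries of all called members but Hoxd1 overlapped between CBN and the cortical regions. Hoxd1 had 1.09, 0.448 and 0.976 TPM in CBN and up to 0.367 TPM elsewhere in the cerebellum. Such a separation, with CBN higher, was seen in 4.89% of all genes. Without CBN replicate 1, 9 members were called, and without CBN replicate 1, UVU replicate 1 and H replicate 3 together, 13. Caudal hindbrain markers summed to 71.56, 160.9 and 92.32 TPM in CBN, but single markers differed in their order. Slc6a5 was highest in CBN replicate 1, at 58.67, 30.96 and 24.82 TPM, and Dbh in replicate 2, at 2.32, 113.6 and 57.47 TPM. The sums were 19.72, 11.44 and 13.45 TPM in UVU and 27.26, 21.4, 19.49 and 47.24 TPM in FL. Choroid plexus markers summed to 2115, 17.24 and 10.13 TPM in UVU. The part of such tissue in the Hox levels was not tested.

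The embryonic hindbrain (H) was compared with M and THy-PHy at the same stage. It was the group with the highest summed Hox level, but its libraries reached to different points along the paralogue groups. Of the 39 members 20 were called higher in H and none lower, beside 6.11% of all genes called higher and 1.91% lower, and without CBN replicate 1, UVU replicate 1 and H replicate 3 the count was 22. In 14 members every H library was above every M and THy-PHy library, beside 2.69% of all genes. With only the 3 compared regions in the fit, 10 members were called.

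Groups 2 and 3 were high in all 3 H libraries. Hoxa2 had 46.3, 29.4 and 33.3 TPM, Hoxb2 had 21.1, 23.6 and 26.4 TPM, Hoxb3 had 93.8, 90.6 and 62 TPM and Hoxd3 had 36.6, 40.8 and 29.5 TPM. Within group 3, Hoxa3 was already much lower in replicate 3, at 60.9, 58.1 and 14.3 TPM. From group 4 on, replicate 3 was far below the other libraries. Hoxa4 had 138, 77.6 and 1.78 TPM, with a log2 fold change of 11.31 ± 1.32 (SE; edgeR adjusted p = 4.15e-07). Hoxa5 had 83.1, 85 and 0.297 TPM (11.38 ± 1.36; edgeR adjusted p = 2.25e-07), and Hoxb5 had 120, 147 and 0.471 TPM (10.45 ± 1.09; edgeR adjusted p = 1.13e-09). Replicate 2 alone held the highest values of groups 6 to 8, where Hoxb8 had 2.67, 43.4 and 0.105 TPM (10.75 ± 1.51; edgeR adjusted p = 2.05e-05) and Hoxb6 had 4.33, 22.4 and 0 TPM (10.24 ± 1.41; edgeR adjusted p = 5.14e-06). Hoxb6 had no counts in M and THy-PHy and was at least 268-fold higher.

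The TPM-weighted mean paralogue number was 3.91, 4.32 and 2.73 in the 3 H libraries. Markers of the cerebellum summed to 1345, 804.3 and 441.7 TPM and caudal hindbrain markers to 21.67, 35.4 and 71.82 TPM in these libraries, so that both differed between them. Embryonic forebrain markers summed to 22.35, 35.88 and 4.21 TPM and skeletal muscle markers to 90.9, 5.09 and 7.14 TPM. The part of these differences in the spread of the Hox levels was not tested. In THy-PHy, Hoxa2 (1.76, 2.11 and 0 TPM) and Hoxd1 (0.321, 0.0573 and 2.75 TPM) were the members with a mean above 1 TPM, and each rested on 1 or 2 of the 3 libraries.

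**Figure D5:**
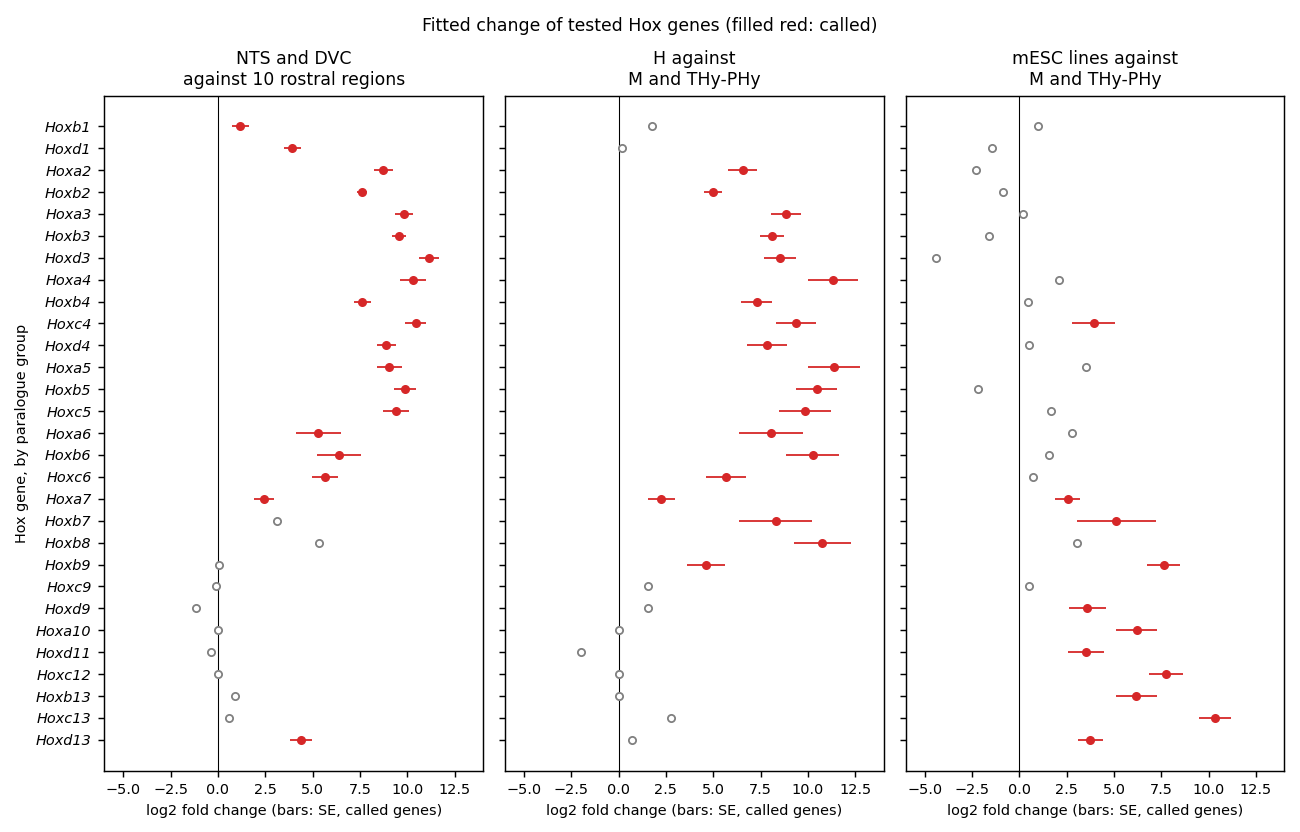
Log2 fold change of tested Hox genes (rows, by paralogue group) for NTS and DVC against the rostral regions, H against M and THy-PHy, and the mESC lines against M and THy-PHy, with SE bars drawn for called genes only. In the first comparison the called genes run from group 1 to group 7, together with Hoxd13, in the second from group 2 to group 9, and in the third they lie mainly in groups 7 to 13.

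H was also set against adult NTS and DVC, where stage and batch cannot be told apart. Of the 39 members 15 were called higher in H and 1 lower, where 22.4% of all genes were called higher and 43.4% in either direction. The largest log2 fold changes were those of Hoxb8 (6.11 ± 1.02, SE; edgeR adjusted p = 1.09e-05), Hoxb7 (5.19 ± 1.42; edgeR adjusted p = 0.00547), Hoxd9 (4.38 ± 1.36; edgeR adjusted p = 0.00458), Hoxb6 (3.49 ± 0.8; edgeR adjusted p = 0.000319) and Hoxb9 (3.17 ± 0.76; edgeR adjusted p = 0.000282). All 5 overlapped between stages and had their highest value in H replicate 2. Without that library 8 members were called and the log2 fold change of Hoxd9 was 0.00, and without H replicate 3 there were 19. By contrast, Hoxa2 (2.61 ± 0.54; edgeR adjusted p = 5.37e-05) and Hoxa3 (2.74 ± 0.5; edgeR adjusted p = 1.19e-05) were higher in every H library than in every NTS and DVC library, beside 20.9% of all genes. Hoxd1 was lower in H, at 0.0828, 0.22 and 0.721 TPM (log2 fold change -1.8 ± 0.78, SE; edgeR adjusted p = 0.0363), and this call was lost without any of NTS replicate 4, DVC replicate 1 or 2, or H replicate 1 or 2.

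The step from rostral to caudal was then compared between stages, as the change in H over M and THy-PHy minus the change in NTS and DVC over the rostral regions. By edgeR no member had a larger step in the embryo, where 8.24% of all genes did, with 1 by DESeq2 and 2 by limma on log2(TPM + 0.1), and 4 of 39 had a smaller one, beside 6.13% of all genes called lower. Hoxb2 differed by -2.62 ± 0.57 (SE; edgeR adjusted p = 0.000223), with a step of 4.98 in the embryo and 7.6 in the adult, and up to 1.77 TPM in M and THy-PHy against up to 0.15 TPM in rostral adult libraries. Hoxa2 differed by -2.17 ± 0.87 (SE; edgeR adjusted p = 0.0434), Hoxd1 by -3.74 ± 1.08 (SE; edgeR adjusted p = 0.00411) and Hoxd13 by -3.67 ± 0.92 (SE; edgeR adjusted p = 0.00254). The difference of Hoxa2 turned to 1.44 with limma on log2(TPM + 0.5). With F among the embryonic controls none of the 4 was called.

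In the mESC lines Hox expression had another composition, with the largest share in group 13. Groups 13, 9 and 12 made up 34.0%, 19.7% and 13.2% of the summed level in B6-1 and 36.5%, 13.4% and 11.6% in B6-2. This did not hold for all high-numbered groups, as groups 10 and 11 made up 3.51% and 2.35% in B6-1 and 3.18% and 2.17% in B6-2. HoxC alone made up 48.0% and 47.7%. Hoxc13, known for its role in hair and nail, had 5.56 and 5.86 TPM in B6-1 and 5.41 and 5.59 TPM in B6-2 and was listed at 0 in 62 of the 70 libraries. Hoxc12 had 3, 2.74, 1.99 and 2.28 TPM in these 4 libraries and was listed at 0 in all 66 others. Hoxb9 had 3.29, 3.28, 1.47 and 1.52 TPM. None of the abundant genes of groups 2 to 5 in the hindbrain exceeded 0.936 TPM in any mESC library.

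Against M and THy-PHy, 12 of 39 members, 30 of them tested, were called higher in the mESC lines. Of all genes tested 27.7% were called higher, so the count is not far above the background. Hoxc13 had a log2 fold change of 10.34 ± 0.85 (SE; edgeR adjusted p = 3.83e-08) and was at least 254-fold higher with 619 counts against 0. Hoxc12 (7.74 ± 0.9; edgeR adjusted p = 0.00024), Hoxb9 (7.62 ± 0.89; edgeR adjusted p = 1.21e-10), Hoxa10 (6.21 ± 1.08; edgeR adjusted p = 0.000456) and Hoxb13 (6.18 ± 1.07; edgeR adjusted p = 0.000204) followed. Hoxa10 stayed under 0.688 TPM. Fibroblast markers, which feeder cells would bring, summed to 23.9 to 45.5 TPM in mESC. In the brain libraries the same sum was 237 to 2452 TPM, but the list includes Thy1, which neurons also express. The brain sums are therefore no measure of fibroblasts, and the part of remaining feeder cells in the mESC levels was not tested.

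Between the lines, no member was called by edgeR, beside 0.316% of all genes called in either direction. At an unadjusted p under 0.05 there were 2, Hoxd1 and Hoxb13, with 1 call by limma on log2(TPM + 0.1), 2 with only the compared lines in the edgeR fit and 0 by DESeq2. Hoxb9 was higher in both B6-1 libraries, with a log2 fold change of 1.19 ± 0.82 (SE; edgeR adjusted p = 0.719).

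The genes that work with Hox proteins were compared in the same fits. Of 8 Hox cofactors, 2 were higher and none lower in NTS and DVC than in the rostral regions (median log2 fold change 0.26, against 0 over all genes), beside 6.54% of all genes called higher and 4.51% lower. Meis1 had a mean of 23.94 TPM against 4.27 TPM (log2 fold change 2.76 ± 0.12, SE; edgeR adjusted p = 1.26e-25). Meis2 had a fitted log2 fold change of 1.34, but its means lay closer, at 194.4 against 158 TPM, because the fit averages log levels over regions. Meis1 was also called higher in PB (1.91 ± 0.17) and in H over M and THy-PHy (2.2 ± 0.22), where it was the only cofactor called. In DVC against NTS none of the 8 cofactors was called by edgeR, with log2 fold changes of -0.16 to 0.53 and 2 at an unadjusted p under 0.05. In the mESC lines 4 of 8 were lower, beside 29.5% of all genes, led by Meis3 (log2 fold change -7.07), Pbx3 (-4.13) and Meis1 (-4.05).

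Among 15 genes that divide the hindbrain into segments, of which 13 were tested, 6 were higher and 2 lower in NTS and DVC, beside 6.54% and 4.51% of all genes. Otx1, a forebrain and midbrain factor, had the largest change (log2 fold change -6.93 ± 0.6, SE; edgeR adjusted p = 2.61e-14), followed by En1 (4.03 ± 0.44) and Gbx2 (3.88 ± 0.32). The mean of En1 over all rostral libraries was nevertheless higher than in NTS and DVC, at 3.98 against 1.34 TPM, because the fit averages log levels over regions. The means of Gbx2 were likewise closer than its fitted change, at 10.06 TPM in NTS and DVC against 5.96 TPM. In H over M and THy-PHy 7 were higher and 1 lower, beside 6.11% and 1.91% of all genes. Fgf3 (4.05 ± 0.6), Gbx1 (3.35 ± 0.5) and Egr2 (3.32 ± 0.71), which marks rhombomeres 3 and 5, were ahead. In mESC 2 were higher and 8 lower, beside 27.7% and 29.5% of all genes, and Cdx1, a caudal factor that activates Hox genes, had a mean of 6.73 TPM against 0 (10.05 ± 0.9).

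Of 18 retinoic acid genes, 17 were tested, and 3 were higher and 2 lower in NTS and DVC, beside 6.54% and 4.51% of all genes. Cyp26b1, which degrades retinoic acid, rose by 2.77 ± 0.13 (SE; edgeR adjusted p = 5.53e-24), and Aldh1a1, which makes it, by 2.43 ± 0.09 (SE; edgeR adjusted p = 1.11e-27), followed by Crabp1 at 2.08 ± 0.26. The means of Crabp1 were nearly equal, at 12.71 TPM in NTS and DVC and 12.05 TPM in the rostral regions, so its fitted change rests on the averaging of log levels. Cyp26b1 was the only gene of this list called between DVC and NTS, lower in DVC at 11.05 against 28.04 TPM (-1.44 ± 0.25; edgeR adjusted p = 0.00463), whereas the Hox genes called there were higher. In H over M and THy-PHy 5 were higher and none lower, beside 6.11% and 1.91% of all genes, led by Aldh1a3 (3.57), Cyp26a1 (2.76) and Cyp26b1 (2.76). Of 23 Polycomb and Trithorax genes, which hold Hox clusters silent or active, 0 were called by edgeR in NTS and DVC over rostral regions (log2 fold changes of -0.82 to 0.16, 14 at an unadjusted p under 0.05), in PB (-0.56 to 0.16, 11), in DVC over NTS (-0.35 to 0.41, 0) or in H over M and THy-PHy (-0.64 to 0.55, 9). Of all genes 6.54%, 4.43%, 0.0651% and 6.11% were called higher in these comparisons, in the same order. In H over adult NTS and DVC 11 were higher and 2 lower, with Ezh2 at 4.5, where 22.4% of all genes were called higher and 43.4% in either direction. In mESC 10 were higher and 6 lower, with Cbx7 at 4.46, beside 27.7% and 29.5% of all genes. Noncoding RNAs of the Hox clusters were not analysed here.

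Transcript levels were looked at for the members with a mean of 1 TPM in a caudal group. For Hoxb8, the coding transcript that led in H made up 42.4% of the gene level in DVC and 99.8% in H. For Hoxb6, the coding transcript that led in DVC made up 78.1% in DVC and 39.7% in H. A retained-intron transcript made up 39.5% of Hoxd3 in NTS, 37.8% in DVC and 43.5% in H, and a processed noncoding transcript made up 55.7%, 59.9% and 63.8% of Hoxc5. These shares were estimated from short single reads and carry no test.

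The 17 members that stayed under 1 TPM in all groups had their highest means mostly in the stem cells. In B6-1 these were Hoxa7 (0.755 TPM), Hoxb13 (0.75 TPM), Hoxa10 (0.503 TPM), Hoxa9 (0.364 TPM), Hoxc11 (0.269 TPM), Hoxa13 (0.266 TPM), Hoxc10 (0.176 TPM), Hoxc8 (0.119 TPM), Hoxd10 (0.0926 TPM) and Hoxa11 (0.0565 TPM). In B6-2 they were Hoxd13 (0.989 TPM), Hoxd9 (0.516 TPM), Hoxd11 (0.206 TPM) and Hoxd12 (0.0164 TPM). The remaining members were highest in brain, Hoxd8 (0.684 TPM) and Hoxc9 (0.434 TPM) in H and Hoxb1 (0.401 TPM) in UVU.

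Finally, the genes outside the family whose levels most resembled the mean Hox level across the 18 adult regions were Dmbx1 (Pearson r = 0.887 of log2(TPM + 1) over the region means, among 13908 candidate genes), Calr4 (0.878), Car5b (0.877), Uts2b (0.875) and Uts2 (0.85). These correlations describe 18 region means, several from the same mice, and rest on the few caudal regions with high Hox levels. Uts2b, encoding a urotensin peptide, had 5.91 TPM in DVC and 1.15 TPM in NTS, and Dmbx1, a homeodomain factor, had 7.54 TPM in DVC, 6.66 TPM in NTS and 6.36 TPM in CBN with up to 0.0911 TPM in rostral means.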

How the data were processed

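Strand-specific mRNA libraries were sequenced as short single reads, and base calls were converted with CASAVA 1.8.2, per the labels. The authors ran Kallisto against GRCm38 cDNA and deposited, for each transcript, an estimated count, not normalized between libraries, and its TPM. The TPM values deposited per gene were sums over transcripts. Whether Kallisto used the strand is not given in the sources used here. Here, the estimated counts of 107899 of 109282 transcripts (98.7%) were added up by gene and made whole numbers, leaving 0.43% to 0.79% of the counts of a library unmatched. Depth was 9074581 to 22229582 estimated counts per library, and the limits and intervals given for low counts cover counting error only. Of 74 replicate pairs none was identical, and the lowest chi-square per gene was 2.39.

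The quasi-likelihood test of edgeR 4.0.16 (R 4.3.3) was used on all 70 libraries with a term per group, after TMM scaling and the filterByExpr filter, which left 19960 genes, with Benjamini-Hochberg adjustment. On simulated data for the caudal against rostral comparison, all 200 changed genes tested were called, with 1 call among the unchanged genes of 17089. The changed genes were picked among those with higher counts and changed severalfold, and the simulated regions were otherwise alike. The run therefore does not show how genes with few counts, or with a spread from single libraries, are called. Alternatives used DESeq2 1.42.0, limma 3.58.1 on log2(TPM + 0.5) or log2(TPM + 0.1), no filters, only the compared groups, a replicate block, other control regions, VTA replicate 1 left out, and each library left out, where the filter and dispersion trend were kept. A fold change on log2(TPM + pseudocount) understates the change of low genes. Leaving out CBN replicate 1, UVU replicate 1 and H replicate 3 together was chosen after seeing the data. Other steps used Python 3.11.15, pandas 2.3.3, NumPy 2.4.6, SciPy 1.17.1 and matplotlib 3.10.9.

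Members with a mean of 1 TPM in a group or a call are described by name, with full values for the 5 largest called changes of a comparison. Genes of the cofactor, segmentation, retinoic acid and Polycomb lists are named where among the 3 largest called changes. Members and lists were chosen with earlier results of these data known. A ratio against a count of 0 uses a limit of 3 counts over the group. A few genes, including a member that is counted in the totals, are not reported here by name, and the cofactor and sensory ganglion lists were used without theirs.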

Additional observations from a re-analysis of the deposited data

Results flagged for a closer look

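Single libraries stood apart in 2 of the 24 values examined for this, and chance gives about 1 in 20. Hoxb3 in NTS was 17.9 TPM in replicate 3 and 24.7 to 25.9 TPM in the other 3 libraries, a gap of 0.848 of the whole range. The summed Hox level of CENT2 was 1.84 TPM in replicate 4, a gap of 0.901 of the range, and in this library Hoxb3 was at 0.572 TPM and Hoxd3 at 0.471 TPM.

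The step from rostral to caudal differed between embryo and adult in 4 members by the interaction test of edgeR. The log2 difference, embryo minus adult, was -2.17 for Hoxa2, -2.62 for Hoxb2, -3.74 for Hoxd1 and -3.67 for Hoxd13. In the first and second of these the adult rostral libraries were near 0 while M or THy-PHy libraries were not, with Hoxb2 at 0.505 and 0.569 TPM in M. Hoxd13 was at 0.439 and 0.239 TPM in M and listed at 0 in all rostral adult libraries. Stage, dissection and batch cannot be told apart here.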

How the results depend on the processing

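The count of members called higher in NTS and DVC over the rostral regions stayed at 18 to 21 under all alternatives run, and 16 of its 20 members were called in every setting. The same held for 12 of the 15 members called between these regions and PB, for 10 of 20 in H over M and THy-PHy, for 6 of 15 in CBN, for 3 of 12 in mESC, for 2 of 16 in H over NTS and DVC, for Hoxd13 alone in PB, and for none in DVC over NTS, the cerebellum or the comparison of steps. With DESeq2, counts changed to 0 higher in DVC over NTS, 12 in the cerebellum, 6 in H over NTS and DVC, 6 in mESC, 0 lower between caudal regions and PB, and 1 larger and 2 smaller steps in the embryo. With limma on log2(TPM + 0.5), with or without a filter on low values, they were 1 in PB, 0 lower between caudal regions and PB, 8 in DVC over NTS, 3 in the cerebellum, 9 in CBN, 5 higher and 2 lower in H over NTS and DVC, 5 in mESC, and 3 larger and 2 smaller steps. With log2(TPM + 0.1) they were 11 in the cerebellum, 6 in H over NTS and DVC, 3 lower in mESC, 1 between the mESC lines and 2 larger steps. With only the compared groups they were 1 in PB, 8 in DVC over NTS, 10 in H over M and THy-PHy and 2 between the mESC lines. Without a filter on low counts 0 were lower in H than in NTS and DVC, and with F among the controls there were 0 smaller steps. Leaving out 1 library gave 19 to 20 for caudal over rostral regions, 2 to 3 for PB, 12 to 14 higher and 0 to 1 lower between caudal regions and PB, 0 to 2 for DVC over NTS, 4 to 7 for the cerebellum, 9 (without CBN replicate 1) to 15 for CBN, 17 to 21 for H over M and THy-PHy, 8 (without H replicate 2) to 19 higher and 0 to 1 lower for H over NTS and DVC, 11 to 12 higher and 0 to 1 lower for mESC, the latter without THy-PHy replicate 3 or M replicate 1, 0 between the mESC lines, and 0 larger and 2 (without M replicate 2) to 4 smaller steps. In H over NTS and DVC the log2 fold change of Hoxa6 ran from -0.66 (without H replicate 2) to 3.4, and that of Hoxd9 from 0.00 (without H replicate 2) to 5.05. The difference of Hoxa2 between embryo and adult steps was 1.44 with log2(TPM + 0.5), 0.60 with log2(TPM + 0.1) and 1.44 without the filter on low TPM. The causes of these changes were not tested. Libraries with the same number were not taken as pairs, because no comparison had every pair's correlation over 0.1. In DVC and NTS these correlations were 0.0175 to 0.151, with a median of 0.149 against -0.0237 in pairs of unlike number. Between the caudal regions and PB the medians were 0.108 and -0.0226. Whether libraries of the same number came from the same mice was not tested. The serial numbers in the sample labels do not follow the replicate numbers in every region, DVC among them. Libraries of the same number therefore need not have been collected together, and these correlations cannot decide whether DVC and NTS libraries were paired. Pairs by serial number were not tested. With the replicate block 2 members were called in DVC over NTS and 1 was lower in mESC. Counts of the other gene lists were computed in the edgeR fit only. Depth limited the 9 members with too few counts to test.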
